A study of Saccharomyces cerevisiae with 20 samples.

Results

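The strain carrying extra copies of HEK2 was compared with the strain carrying extra copies of TOS8, using 8 of the 20 mRNA libraries of a study of colony shape in Saccharomyces cerevisiae. Each strain has 4 libraries, found by the strain number in the count table, which matches the labels. Of the 6575 ORFs in the table (features whose systematic name begins with Y), 5772 reached a median of 1 CPM (counts scaled to the total of a library) over the 20 libraries and were tested. The study searched a plasmid library for genes whose extra copies flatten the structured, fluffy colonies of strain F45, and sequenced mRNA from 5 of the resulting strains. It graded the loss of colony structure as very strong with HEK2 and weak with TOS8. The strains thus differ in colony structure as well as in plasmid gene, and in the differences below the 2 cannot be told apart. Both strains here are the haploid F45 (MATa, ho∆0::hphMX6, SPS2:EGFP:natMX4), which also carries an unmapped serine auxotrophy, with a low-copy MoBY plasmid kept by G418 that bears HEK2 in the one and TOS8 in the other. The other 3 strains (SFL1, SAN1 and ROF1) share this background, and an empty-vector strain was not analysed here, so every difference below is between 2 overexpression strains. Colonies grew for 4 days at 30° on YPD with 2% glucose, and each library came from 5 µg of RNA of several pooled colonies. A colony holds cells in different states, and in such bulk samples fewer cells of a kind and less RNA per cell cannot be told apart.

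Hek2, also called Khd1, is an RNA-binding protein with KH domains that is known to bind the mRNAs of ASH1, a daughter-cell repressor, and of FLO11, the flocculin that holds structured colonies together, and to hold back their translation. Tos8 is a homeodomain-like protein of the TALE class, a putative transcription factor and a paralog of Cup9, which represses the peptide transporter gene PTR2. In colonies that have grown for days on glucose, cells near the nutrients still ferment while others use ethanol, acetate and stored carbohydrate, and genes of fermentation, respiration, amino acid synthesis and the cell wall are known to differ between those cells.

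The 8 libraries held between 6027147 and 35027485 counts. Libraries of one strain had Pearson correlations of log2 CPM of 0.989 to 0.997 across ORFs, against 0.963 to 0.978 between the strains, with ORFs not being independent replicates. HEK2 replicate 4 had a chi-square per degree of freedom of 18.2 to 103.8 against its mates, where the other 3 HEK2 libraries gave 5.23 to 21.4 among themselves and the 4 TOS8 libraries 7.52 to 31.7. This ratio grows with depth, and HEK2 replicate 4 was the deepest library. Its Pearson correlations were 0.9895, 0.9937 and 0.9929 with HEK2 replicates 1, 2 and 3, where replicates 1 and 3 gave 0.9917. Some results moved without HEK2 replicate 4 and are given with both values. Per-library values are normalized CPM in the order of replicates 1 to 4, fold changes are log2 of HEK2 over TOS8, so that a positive value means higher in the HEK2 strain, and an ORF was called at an adjusted p (edgeR's quasi-likelihood test, Benjamini-Hochberg over the 5772 ORFs) below 0.01.

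Each plasmid gene was raised in its own strain. HEK2 (chromosome II, 160184 to 161329) had 283, 233, 253 and 289.7 CPM in the HEK2 strain and 82.8, 88.0, 91.8 and 91.2 CPM in the TOS8 strain (log2 fold change 1.58, SE 0.065, edgeR adjusted p = 2.6e-13). TOS8, on chromosome VII, had 72.1, 67.3, 56.7 and 65.1 CPM in the HEK2 strain and 313, 301, 271 and 285 CPM in the TOS8 strain (log2 fold change -2.15, SE 0.062, edgeR adjusted p = 3.1e-16). The groups were far apart for both genes, and each gene in the strain without its plasmid lay within 0.027 to 0.041 of the SFL1, SAN1 and ROF1 mean on the log2 scale. RIB1 and SHE1, the ORFs 491 and 370 bases from HEK2, were not called (log2 fold changes -0.34 and 0.089, edgeR adjusted p = 0.044 and 0.45). Beside TOS8, SRM1 at 2101 bases was not called (log2 fold change 0.069, edgeR adjusted p = 0.42), while VPS45 at 2713 bases and PAN2 at 4957 bases were called higher in the HEK2 strain by 0.22 and 0.38.

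The strains differed at 2753 of the 5772 ORFs (47.7%), of which 1348 were higher in the HEK2 strain (23.4%) and 1405 were lower (24.3%). These shares are the background against which the members of each gene group below are read. Most differences were small: the median absolute log2 fold change was 0.444 among the called ORFs and 0.236 over all ORFs tested, and the median signed value was -0.00305. Past 1.5-fold, 349 called ORFs were higher and 488 lower, past 2-fold 87 were higher and 122 lower, and past 4-fold 5 were higher and 9 lower. For 3075 ORFs (53.3%) the 4 HEK2 libraries did not overlap the 4 TOS8 libraries, and 2611 of these were also called. No chromosome stood apart, with median log2 fold changes between -0.0309 and 0.0396 and called shares between 44% and 52.9% over the 16 chromosomes.

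**Figure D1:**
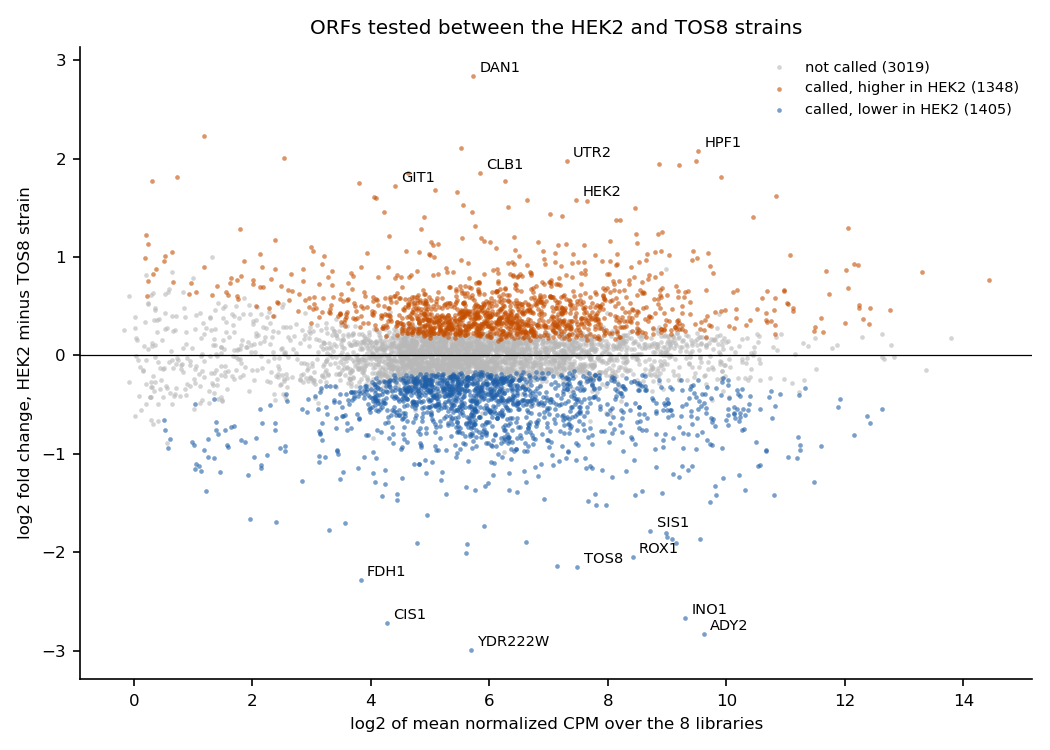
Log2 fold change, HEK2 minus TOS8 (vertical axis), against the log2 of the mean normalized CPM over the 8 libraries (horizontal axis), with 1 point for each of the 5772 ORFs tested. The 1348 ORFs called higher and the 1405 called lower in the HEK2 strain lie over the whole range of levels, with DAN1 at 2.84 and YDR222W at -2.997 as the extremes.

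The 12 largest rises and 12 largest falls below were taken only from called ORFs whose libraries did not overlap between the strains. A lack of overlap in these genes was thus set by the choice. Of the 12 largest rises in the HEK2 strain, 6 were of wall or secreted proteins. DAN1, a mannoprotein that yeast puts in its wall without oxygen, had 86.4, 86.0, 114 and 85.1 CPM in the HEK2 strain and 14.8, 13.8, 5.43 and 17.6 CPM in the TOS8 strain. All HEK2 libraries were above all TOS8 libraries, with HEK2 replicate 3 highest and TOS8 replicate 3 lowest (log2 fold change 2.84, SE 0.44, edgeR adjusted p = 1.4e-05). Its relatives DAN4 (74.2 ± 10.3 CPM in the HEK2 strain and 17.3 ± 4.47 CPM in the TOS8 strain, SD, n = 4 each) and TIR4 (119 ± 23.0 CPM in the HEK2 strain and 34.6 ± 3.93 CPM in the TOS8 strain) moved the same way, by 2.103 and 1.78 (edgeR adjusted p = 8.2e-08 and 2.5e-07). UTR2, a transglycosylase that joins chitin to glucan in the wall, had 234, 256, 281 and 239 CPM in the HEK2 strain and 49.9, 64.0, 61.1 and 79.5 CPM in the TOS8 strain (log2 fold change 1.97, SE 0.16, edgeR adjusted p = 3.1e-09). HPF1, a secreted mannoprotein, had 1346, 969, 1118 and 1335 CPM in the HEK2 strain and 301, 316, 247 and 269 CPM in the TOS8 strain (log2 fold change 2.08, SE 0.22, edgeR adjusted p = 1.4e-07). Its near relative CSS1 had a log2 fold change of 1.97 (edgeR adjusted p = 4.8e-08), and since reads of these repeat-rich genes could be shared in the counting, the 2 values may not be separate measurements.

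Metabolic genes made up most of the other large rises. HIS4, which encodes a trifunctional enzyme of histidine synthesis, had 786, 834, 770.2 and 563 CPM in the HEK2 strain and 205, 208, 176 and 176 CPM in the TOS8 strain. HEK2 replicate 4 was the lowest of its strain and still far above every TOS8 library (log2 fold change 1.95, SE 0.11, edgeR adjusted p = 4.6e-11). SER3, the phosphoglycerate dehydrogenase that starts serine synthesis, had 1376, 1681, 1644 and 1296 CPM in the HEK2 strain and 438, 458, 391 and 415 CPM in the TOS8 strain (log2 fold change 1.82, SE 0.11, edgeR adjusted p = 1.4e-10), in 2 strains that are both serine auxotrophs. YNR071C, a putative aldose epimerase, had 920.1, 942, 943 and 922 CPM in the HEK2 strain and 223, 253, 202 and 294 CPM in the TOS8 strain, with the HEK2 libraries within a few percent of each other (log2 fold change 1.94, SE 0.11, edgeR adjusted p = 3.2e-11). SNO1, of vitamin B6 metabolism, and CLB1, a mitotic cyclin, rose by 1.86 and 1.85 (edgeR adjusted p = 1.4e-08 and 1.3e-10). VEL1, a gene that zinc limitation induces and that closely resembles YOR387C, was scarce in both strains, with 9.35, 11.5, 12.2 and 4.00 CPM in the HEK2 strain and 3.01, 2.76, 1.72 and 1.63 CPM in the TOS8 strain. HEK2 replicate 4 was the low one there, and the log2 fold change of 2.01 became 2.32 without it.

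The largest fall belonged to a gene without a known role. YDR222W had 9.64, 10.6, 13.9 and 12.5 CPM in the HEK2 strain and 105, 85.2, 96.7 and 77.8 CPM in the TOS8 strain (log2 fold change -2.997, SE 0.30, edgeR adjusted p = 7.3e-08). ADY2, an acetate transporter that is also thought to export ammonium from ageing colonies, had 194, 199.9, 153 and 226 CPM in the HEK2 strain and 1889, 1554, 1167 and 927 CPM in the TOS8 strain. The TOS8 libraries spread widely, and the lowest was still above the highest HEK2 library (log2 fold change -2.83, SE 0.24, edgeR adjusted p = 7.7e-09). INO1, the first enzyme of inositol synthesis, had 144, 211, 174 and 159 CPM in the HEK2 strain and 1401, 1199, 1475 and 301 CPM in the TOS8 strain (log2 fold change -2.67, SE 0.43, edgeR adjusted p = 2.1e-05). TOS8 replicate 4 was far below its mates at this gene, and the log2 fold change was -2.98 without it. CIS1, which acts when protein import into mitochondria fails, and FDH1, a formate dehydrogenase with near-identical copies in the genome, were scarce in the HEK2 strain. CIS1 averaged 4.89 ± 1.69 CPM in the HEK2 strain and 33.6 ± 3.26 CPM in the TOS8 strain, and FDH1 averaged 4.60 ± 1.56 CPM in the HEK2 strain and 23.8 ± 3.50 CPM in the TOS8 strain (SD, n = 4 each). Their log2 fold changes were -2.72 and -2.28 (edgeR adjusted p = 1.1e-08 and 3.2e-09), that of FDH1 being -2.61 without HEK2 replicate 4.

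Several of the other large falls were of regulators. ROX1, the repressor of hypoxic genes, had 212, 134, 88.7 and 94.1 CPM in the HEK2 strain and 599.8, 500.0, 499.8 and 604 CPM in the TOS8 strain. HEK2 replicate 1 was highest in its strain and well below the TOS8 libraries (log2 fold change -2.05, SE 0.42, edgeR adjusted p = 0.00027), and without it the log2 fold change was -2.37. YOR338W, a gene of unknown role, also varied within the HEK2 strain, with 88.8, 62.3, 31.0 and 21.9 CPM in the HEK2 strain and 250.0, 209, 239.6 and 221 CPM in the TOS8 strain (log2 fold change -2.14, SE 0.50, edgeR adjusted p = 0.00095; -2.55 without HEK2 replicate 1). MGA1, a protein related to heat shock factor that promotes pseudohyphal growth in high copy, had 25.3, 19.8, 16.6 and 19.0 CPM in the HEK2 strain and 90.4, 70.2, 76.3 and 75.9 CPM in the TOS8 strain (log2 fold change -1.91, SE 0.33, edgeR adjusted p = 4.2e-05). NFG1, named as a negative regulator of filamentous growth, had 13.7, 23.8, 24.1 and 18.4 CPM in the HEK2 strain and 59.9, 74.2, 74.4 and 102 CPM in the TOS8 strain (log2 fold change -2.004, SE 0.16, edgeR adjusted p = 5.3e-09). BAG7, a GTPase-activating protein for Rho1, RIE1, an RNA-binding protein, and GRE2, a methylglyoxal reductase, fell by 1.91, 1.90 and 1.90 on the log2 scale.

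**Figure D2:**
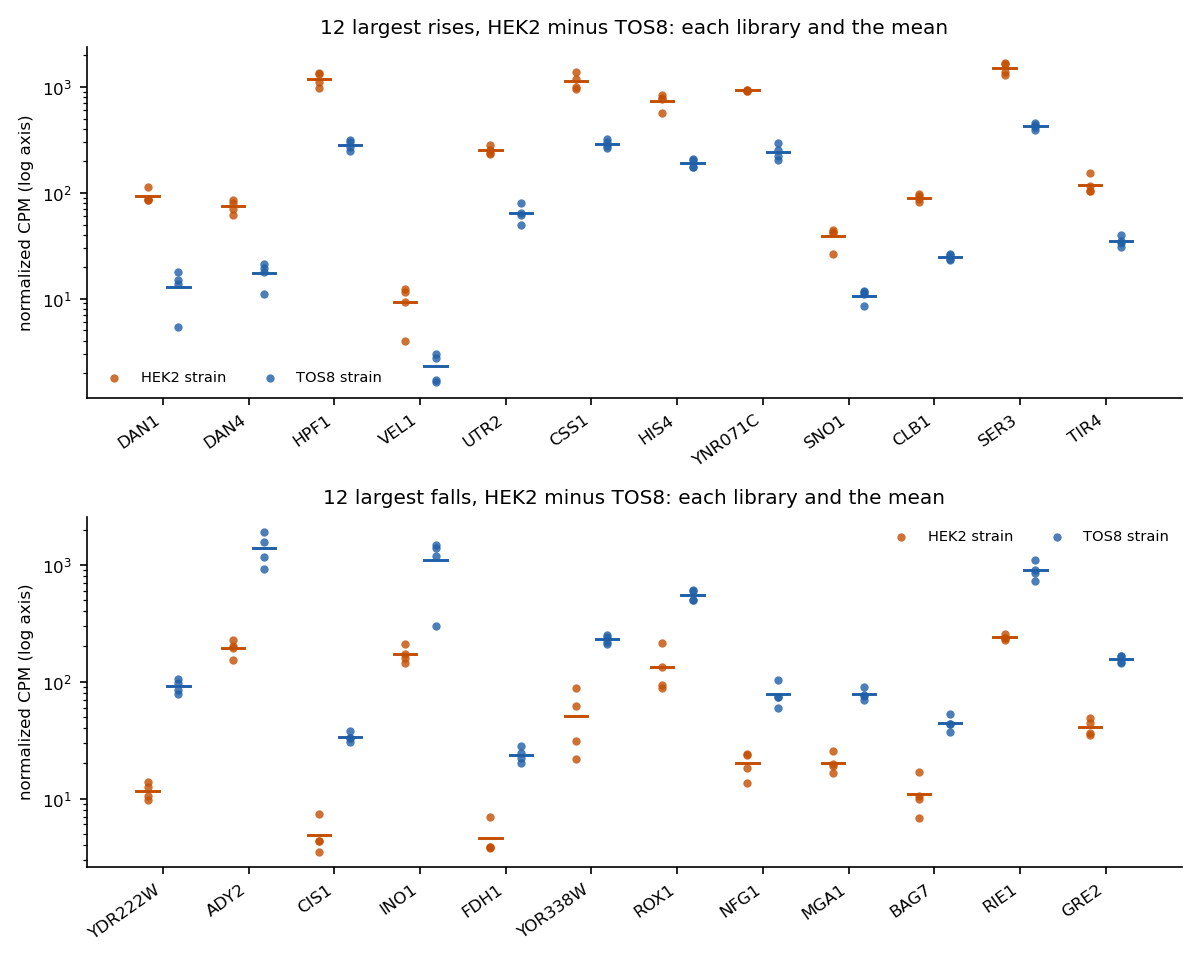
Normalized CPM (log axis) of the 12 ORFs with the largest rise (upper panel) and the 12 with the largest fall (lower panel) in the HEK2 strain against the TOS8 strain, with 1 point for each of the 4 libraries and a bar at the mean. The strains overlap for none of the 24 ORFs, as the choice required, and the widest spread within a strain is that of INO1 in the TOS8 libraries, where replicate 4 had 301 CPM.

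Genes that let cells live on acetate, lactate and other nonfermentable carbon were lower in the HEK2 strain. All 4 tested genes of the acetate, ammonium and lactate transport group fell, with a median log2 fold change of -1.58, and their summed level was 2885 to 3385 CPM in the HEK2 libraries and 6896 to 10470.0 CPM in the TOS8 libraries. ATO3, an ammonium exporter of the ADY2 family, had 356, 377, 275 and 287 CPM in the HEK2 strain and 1451, 1233, 1114 and 937 CPM in the TOS8 strain (log2 fold change -1.87, SE 0.17, edgeR adjusted p = 2.5e-08). JEN1, the lactate and pyruvate permease, had 1566, 1617, 1575 and 1894 CPM in the HEK2 strain and 4965, 4327, 3609 and 3335 CPM in the TOS8 strain (log2 fold change -1.29, SE 0.16, edgeR adjusted p = 7.6e-07). Of the 14 genes of gluconeogenesis and the glyoxylate cycle, 11 fell and none rose (median -0.78). ICL1, the isocitrate lyase of the glyoxylate cycle, had 837, 1087, 949 and 1027 CPM in the HEK2 strain and 2984, 2814, 2567 and 2086 CPM in the TOS8 strain, and TOS8 replicate 4 was the lowest of its strain without reaching the HEK2 libraries (log2 fold change -1.42, SE 0.14, edgeR adjusted p = 6.7e-08). MLS1, the malate synthase of the same cycle, and SIP4, one of its activators, fell by 1.11 and 1.18 on the log2 scale. In fatty acid oxidation and the carnitine shuttle, 12 of 19 genes fell and only the regulator PIP2 rose (log2 fold change 0.28), the largest fall being that of the carnitine acetyltransferase YAT2 (log2 fold change -1.37, SE 0.15, edgeR adjusted p = 1.9e-07).

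Of the respiration genes, those of the respiratory chain were mostly lower in the HEK2 strain, by less. In the respiratory chain and ATP synthase, 24 of 35 genes fell and 2 rose (median -0.34), and in the TCA cycle 6 of 20 fell and 3 rose (median -0.23), so that the share called, 9 of 20, was under the background of 47.7%. With 1 library left out the TCA cycle list counted 4 to 9 falls, the 9 being without HEK2 replicate 4 and the 4 without HEK2 replicate 1 or TOS8 replicate 1 or 2. CYC7, the cytochrome c isoform that is made with little oxygen, had 492, 404, 369 and 459.7 CPM in the HEK2 strain and 1003, 928, 921 and 922 CPM in the TOS8 strain (log2 fold change -1.13, SE 0.10, edgeR adjusted p = 2.4e-08). COX5B, the oxidase subunit made with little oxygen, went the other way, with 115, 102, 96.1 and 101 CPM in the HEK2 strain and 65.1, 53.3, 54.1 and 62.4 CPM in the TOS8 strain (log2 fold change 0.83, SE 0.11, edgeR adjusted p = 1.6e-06). The other gene called higher, ATP1, had a log2 fold change of 0.24 and lost its call without any 1 of 6 libraries (HEK2 replicates 2, 3 and 4 and TOS8 replicates 1, 3 and 4). NDE2, an external NADH dehydrogenase, fell (log2 fold change -0.84, SE 0.17, edgeR adjusted p = 0.00036), although HEK2 replicate 4 came near the lowest TOS8 library with 85.0 against 87.4 CPM. In the TCA cycle list the citrate synthases CIT2 and CIT3 fell by 0.88 and 0.64 on the log2 scale, while PYC2 and PYC1, the pyruvate carboxylases that refill the cycle, rose by 1.14 and 0.53.

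Fermentation and sugar storage lay on the other side. Of the 23 genes of glycolysis and fermentation 18 rose in the HEK2 strain and 1 fell (median 0.66). ENO2, the enolase of growth on glucose, had 6918, 6269.8, 5782 and 5254 CPM in the HEK2 strain and 2484, 2649, 2106 and 2614 CPM in the TOS8 strain, with no overlap (log2 fold change 1.30, SE 0.16, edgeR adjusted p = 8.3e-07). ADH5, a minor alcohol dehydrogenase, had the largest rise of the group, with 334, 334, 301 and 234 CPM in the HEK2 strain and 109.7, 112, 90.4 and 94.1 CPM in the TOS8 strain (log2 fold change 1.57, SE 0.11, edgeR adjusted p = 1.1e-09). PGK1 rose by 0.93 (edgeR adjusted p = 2.3e-07), and PDC6, a minor pyruvate decarboxylase, was the member that fell (log2 fold change -0.47, SE 0.084, edgeR adjusted p = 8.1e-05). Trehalose and glycogen genes rose in 10 of 18 cases and fell in none (median 0.32), led by the glycogen debranching enzyme GDB1. GDB1 had 397, 456, 515 and 633 CPM in the HEK2 strain and 208, 229, 208 and 205 CPM in the TOS8 strain (log2 fold change 1.23, SE 0.11, edgeR adjusted p = 1.2e-08). The synthase GSY1 and the branching enzyme GLC3 rose by 1.17 and 1.04. The group gained falls with fewer libraries, 2 without TOS8 replicate 4 and 1 without HEK2 replicate 4.

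Hexose transporters and sensors went both ways. Of 21 genes tested 10 rose and 5 fell (median 0.22). The group summed to 17630 to 21490 CPM in the HEK2 libraries and 13670 to 15740 CPM in the TOS8 libraries. The rises and falls named below were the largest of the group and hold only a small part of that level. HXT13, HXT16 and HXT17, which are close copies known to take up polyols, rose by 1.42, 1.28 and 1.44, and HXT17 had 197, 187, 184 and 192 CPM in the HEK2 strain and 74.2, 72.1, 60.7 and 74.9 CPM in the TOS8 strain (log2 fold change 1.44, SE 0.087, edgeR adjusted p = 9.3e-11). Their sequences are nearly the same, so the 3 rises may share reads. HXT9 and HXT11, another pair of near copies, and HXT14 fell by 0.94, 1.03 and 1.05 on the log2 scale at levels of only a few CPM. HXT8 was listed at 0 counts in all 8 libraries and was not tested.

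**Figure D3:**
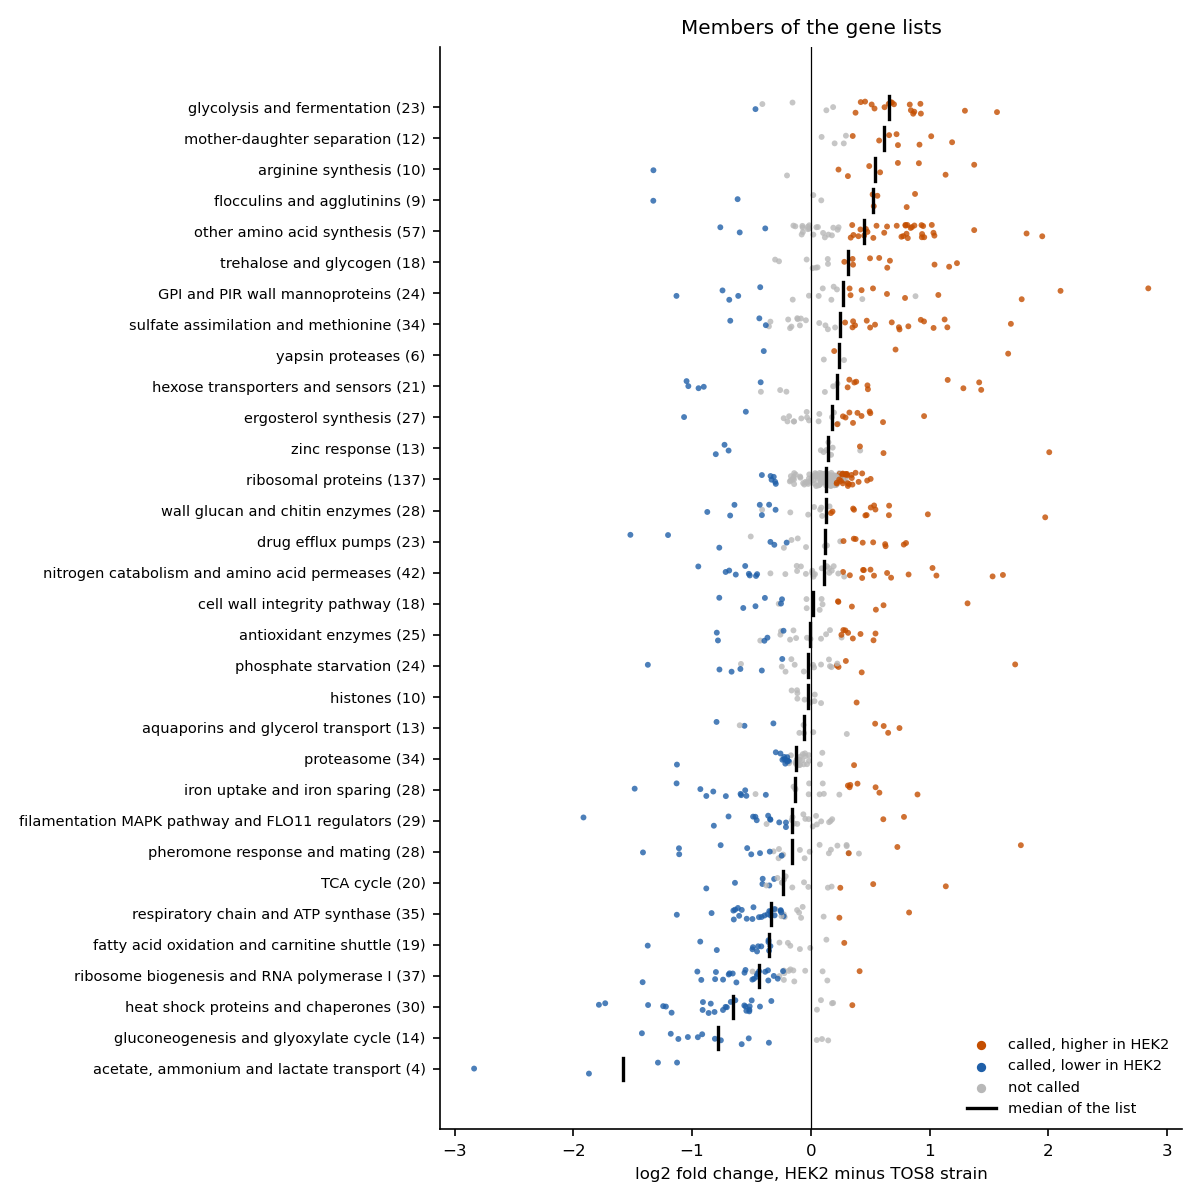
Log2 fold change, HEK2 minus TOS8 (horizontal axis), of every tested member of the gene groups, ordered by group median (black bar), with the number of members in brackets. Glycolysis (median 0.66), cell separation (0.62) and arginine synthesis (0.54) stand at the top, and heat shock proteins (-0.65), gluconeogenesis (-0.78) and acetate transport (-1.58) at the bottom.

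Amino acid synthesis was broadly higher in the HEK2 strain. Outside the arginine and sulfur pathways, 34 of 57 biosynthetic genes rose and 3 fell (median 0.45), and 8 of 10 arginine genes rose and 1 fell (median 0.54). Gcn4, the activator of these pathways, binds the core TGACTC, which was searched on both strands in the 300 bases upstream of each ORF start of the files' R64 genome. It occurred upstream of 33 of the 57 genes (57.9%) and of 9 of the 10 arginine genes, against 8.04% of all 5772 ORFs, 11.6% of those higher, 6.12% of those lower and 7.32% of those not called. The windows below show this core in capitals in 30 bases upstream of 3 genes that rose strongly (HIS4, HIS5 and SER33), of ARG4, and of CPA1, the arginine gene that fell. They were read 5′ to 3′ on the strand of the gene from chrIII:68515-68544, chrIX:142714-142743, chrIX:222627-222656, chrVIII:141564-141593 and chrXV:882599-882628.
HIS4: acccatgcacagTGACTCacgtttttttat
HIS5: tcttggatctgtTGACTCacttcaattgat
SER33: cacgctggaaacGAGTCAccgttatgaaaa
ARG4: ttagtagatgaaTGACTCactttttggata
CPA1: tttctTGACTCgtcgtttctttttcttttt
A match is a description of these letters only. In SER33 the core appears as its reverse complement, GAGTCA.

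HIS5, the histidinol-phosphate aminotransferase, had 438, 458, 419 and 309 CPM in the HEK2 strain and 154, 160.3, 153 and 157 CPM in the TOS8 strain (log2 fold change 1.38, SE 0.092, edgeR adjusted p = 3.8e-10). SER33, the paralog of SER3, had 174, 196, 208 and 168 CPM in the HEK2 strain and 88.7, 94.1, 83.0 and 96.0 CPM in the TOS8 strain (log2 fold change 1.04, SE 0.077, edgeR adjusted p = 1.2e-09). ARG4, argininosuccinate lyase, had 453, 483, 443 and 317 CPM in the HEK2 strain and 164.4, 184, 173 and 133 CPM in the TOS8 strain (log2 fold change 1.38, SE 0.12, edgeR adjusted p = 1e-08). In all 3 the strains were clearly apart, and HEK2 replicate 4 was the lowest of its strain for HIS5 and ARG4. ORT1, the mitochondrial ornithine carrier, and ARG1 rose by 1.14 and 0.91. CPA1 went against them, with 659, 553, 444 and 389 CPM in the HEK2 strain and 1386, 1283, 1305 and 1156 CPM in the TOS8 strain (log2 fold change -1.32, SE 0.23, edgeR adjusted p = 5.7e-05). CPA1 encodes a subunit of the arginine-specific carbamoyl phosphate synthetase, and YOR302W, the short upstream ORF of its mRNA that encodes the arginine attenuator peptide, fell with it (log2 fold change -1.34, SE 0.21, edgeR adjusted p = 2e-05). Among the other amino acid genes ILV2, GLN1 and GDH1 fell, by 0.76, 0.60 and 0.38 on the log2 scale, the last losing its call without HEK2 replicate 3 or 4 or TOS8 replicate 1 or 2 (edgeR adjusted p = 0.0051 with all libraries). GCN4 mRNA itself had 1125, 1276, 1327 and 1443 CPM in the HEK2 strain and 1325, 1383, 1306 and 1245 CPM in the TOS8 strain, with overlapping groups (log2 fold change -0.025, SE 0.075, edgeR adjusted p = 0.79), which bears on its level only and not on its translation, the step at which GCN4 is known to be controlled.

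Purine synthesis and the one-carbon pathway that feeds it moved with the amino acid genes. This group of 17 genes was picked after the values were seen. In it 14 rose, none fell, and ADE1, ADE16 and SHM1 were not called, although ADE1 was called without HEK2 replicate 4 and SHM1 without HEK2 replicate 1 (median 0.65). ADE4, the first committed enzyme, had 209, 224, 197 and 151 CPM in the HEK2 strain and 86.9, 86.0, 94.6 and 89.9 CPM in the TOS8 strain (log2 fold change 1.13, SE 0.12, edgeR adjusted p = 2e-07). ADE3, the trifunctional folate enzyme, and GCV1, of glycine cleavage, rose by 1.03 and 0.95, whereas ADE16, one of a duplicated pair, had a log2 fold change of 0.025 and its partner ADE17 rose by 0.97. Vitamin B6 genes, also picked afterwards, split by copy: SNZ1 rose by 1.51 beside SNO1, while SNZ2, SNZ3, SNO2 and SNO3 fell by 0.62, 0.60, 0.68 and 0.54 on the log2 scale. SNZ2 and SNZ3 are near copies of each other, as are SNO2 and SNO3, and SNO3 kept its call only without HEK2 replicate 3 or TOS8 replicate 1 among the 8 fits that each left out 1 library.

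Sulfur genes showed a smaller median difference in the same direction. Of 34 genes of sulfate assimilation and methionine 17 rose and 3 fell (median 0.25). MET2, homoserine acetyltransferase, had 50.7, 50.01, 43.6 and 60.6 CPM in the HEK2 strain and 18.6, 16.4, 15.8 and 14.7 CPM in the TOS8 strain (log2 fold change 1.69, SE 0.10, edgeR adjusted p = 6.6e-11). The sulfite reductase subunit MET5 and the methionine permease MUP3 rose by 1.15 and 1.13, and the sulfite exporter SSU1, picked afterwards, by 1.14. MMP1, a permease for S-methylmethionine, fell by 0.68 and MET4, the pathway's activator, by 0.38 on the log2 scale. Nitrogen catabolism and amino acid permeases were mixed, with 14 of 42 higher and 9 lower. TAT2, a tryptophan permease, rose by 1.06, while its relative TAT1, the activator GAT1 and PUT1, the proline oxidase, fell by 0.69, 0.72 and 0.95 on the log2 scale. DAL5 was listed at 0 counts in all 8 libraries and was not tested.

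Heat shock proteins and chaperones were the group with the most falls. In the HEK2 strain 25 of 30 were lower and only SSB2, a chaperone of the ribosome, was higher (median -0.65). SIS1, a J-domain cochaperone of Hsp70, had 214, 185, 164.8 and 192 CPM in the HEK2 strain and 751, 614, 699 and 549 CPM in the TOS8 strain (log2 fold change -1.78, SE 0.23, edgeR adjusted p = 1.5e-06). SSA4, a stress-inducible Hsp70, had 783, 740.4, 628 and 694 CPM in the HEK2 strain and 2159.8, 1762, 1865 and 1575 CPM in the TOS8 strain (log2 fold change -1.37, SE 0.18, edgeR adjusted p = 2.6e-06). No library of either gene overlapped the other strain. CUR1 and BTN2, related proteins that sort misfolded proteins, fell by 1.73 and 1.22, and HSP82, the inducible Hsp90, by 1.24 on the log2 scale. Hsf1, the heat shock factor, binds repeats of TTC and GAA, and the form TTCNNGAA, a motif added after the values were seen, occurred on either strand upstream of 20 of the 30 genes (66.7%), against 13.1% of all ORFs, 12.2% of those higher and 14.5% of those lower. The motif is shown in capitals upstream of SSA4 (chrV:364325-364354), HSP82 (chrXVI:98674-98703) and BTN2 (chrVII:772364-772393), with HSP82 read from the minus strand.
SSA4: aatgaagtacaTTCTAGAAgttcctagaac
HSP82: ctgtattagagTTCAAGAAatcatacctga
BTN2: atattttcttcTTCTTGAAagaaatatcag
HSF1 mRNA was not called (log2 fold change -0.12, SE 0.06, edgeR adjusted p = 0.099). Of the general stress activators, MSN2 was not called (log2 fold change 0.041, SE 0.068, edgeR adjusted p = 0.62) and MSN4 rose, with 321, 348, 385 and 422 CPM in the HEK2 strain and 195, 189.9, 198 and 195 CPM in the TOS8 strain (log2 fold change 0.92, SE 0.078, edgeR adjusted p = 6.9e-09). ZPR1, a chaperone of translation elongation factor 1A, stood outside the list and had 264, 244, 215 and 208 CPM in the HEK2 strain and 996, 779, 904 and 725 CPM in the TOS8 strain (log2 fold change -1.87, SE 0.26, edgeR adjusted p = 3.5e-06).

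Ribosome biogenesis genes were also mostly lower in the HEK2 strain. Of 37 genes of ribosome biogenesis and RNA polymerase I, 24 fell and 1 rose (median -0.43), and without HEK2 replicate 4, the lowest library of this group, 18 fell (median -0.34). DBP2, an RNA helicase, had 245, 212, 173 and 133 CPM in the HEK2 strain and 562, 488, 492 and 499 CPM in the TOS8 strain (log2 fold change -1.42, SE 0.23, edgeR adjusted p = 2.2e-05). RPA14 and RPA34, subunits of RNA polymerase I, fell by 0.96 and 0.92, and SFP1, an activator of ribosome genes, was the member that rose, by 0.41. The ribosomal proteins themselves leaned the other way: 29 of 137 rose and 6 fell, with a median of 0.13 and no member past 1.5-fold. Both counts were under the background share, but without HEK2 replicate 4 the rises were 41, above it, and the median 0.19. The count of rises was 12 without HEK2 replicate 2, 13 without TOS8 replicate 3, 18 without HEK2 replicate 1 or TOS8 replicate 2 and 19 without TOS8 replicate 1, and many of these genes are near-identical pairs. In the proteasome list 13 of 34 genes fell and 1 rose (median -0.12), with 8 falls without TOS8 replicate 1. The 34 genes and the falls include the activator RPN4. The share called, 41.2%, was under the background of 47.7%. RPN4, the activator of proteasome genes, had 392, 368, 369.6 and 405 CPM in the HEK2 strain and 945, 789.8, 837 and 783 CPM in the TOS8 strain (log2 fold change -1.13, SE 0.13, edgeR adjusted p = 2.7e-07), while the largest falls of the subunits were those of RPN6 and RPT3, by 0.29 and 0.26 on the log2 scale. The Rpn4 site GGTGGCAAA occurred upstream of 27 of the 34 genes (79.4%), against 1.28% of all ORFs.

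At the cell surface, genes that part mother and daughter cells were higher in the HEK2 strain. Of 12 separation genes 8 rose and none fell (median 0.62). DSE4, a daughter-cell glucanase, had 59.4, 61.6, 66.2 and 70.5 CPM in the HEK2 strain and 28.3, 30.3, 24.3 and 29.7 CPM in the TOS8 strain (log2 fold change 1.19, SE 0.12, edgeR adjusted p = 6.7e-08). EGT2, a wall protein of late mitosis and early G1, had 114, 126, 136 and 140.4 CPM in the HEK2 strain and 71.9, 70.6, 60.3 and 71.2 CPM in the TOS8 strain, with TOS8 replicate 3 lowest and no overlap (log2 fold change 0.92, SE 0.11, edgeR adjusted p = 1.2e-06). CTS1, the chitinase that cuts the septum, rose by 0.58 (edgeR adjusted p = 5.7e-05), and PRY3, a wall protein, by 1.01. DSE2, another daughter-cell glucanase, had 158, 132, 148 and 164.4 CPM in the HEK2 strain and 93.6, 101, 88.0 and 82.7 CPM in the TOS8 strain (log2 fold change 0.72, SE 0.10, edgeR adjusted p = 3e-06).

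Other wall genes went both ways. Of 24 wall mannoproteins 10 rose and 5 fell (median 0.27), with 7 rises without HEK2 replicate 4, and of 28 glucan and chitin enzymes 13 rose and 7 fell. The rises were led by DAN1, DAN4 and TIR4, the falls by PST1, CWP1 and CWP2. PST1, a protein that cells secrete when the wall is damaged, had 241, 258, 272 and 348 CPM in the HEK2 strain and 824, 642, 560.4 and 432 CPM in the TOS8 strain (log2 fold change -1.13, SE 0.16, edgeR adjusted p = 6.6e-06). CWP2, an abundant mannoprotein of the wall, had 4391, 4367, 4029 and 3998 CPM in the HEK2 strain and 6765, 6320.3, 6704 and 7224 CPM in the TOS8 strain (log2 fold change -0.69, SE 0.079, edgeR adjusted p = 3.9e-07). EXG1, the major exoglucanase, and SCW11 rose by 0.99 and 0.66, and KNH1, of glucan synthesis, and the chitin synthase CHS1 fell by 0.87 and 0.64 on the log2 scale. In the cell wall integrity pathway 6 of 18 genes rose, or 4 without HEK2 replicate 3 or 4 or TOS8 replicate 2 or 3, and 6 fell. The sensor WSC4 rose by 1.32, whereas the sensors MID2 and SLG1 and the pathway's transcription factor RLM1 fell by 0.57, 0.47 and 0.77. MKC7, a yapsin protease of the cell surface, had 64.0, 69.1, 71.4 and 64.9 CPM in the HEK2 strain and 15.1, 21.5, 18.4 and 27.7 CPM in the TOS8 strain (log2 fold change 1.66, SE 0.13, edgeR adjusted p = 1.6e-09). YPS5 and YPS7 rose by 0.71 and 0.20, the second losing its call without HEK2 replicate 2 or 3 or TOS8 replicate 3 or 4, and YPS3 fell by 0.40 on the log2 scale.

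FLO11 encodes the main adhesin of structured colonies. It had 3508, 4849.8, 4803 and 3499 CPM in the HEK2 strain and 5783, 6459, 6040.2 and 7249 CPM in the TOS8 strain. Every HEK2 library was below every TOS8 library (log2 fold change -0.62, SE 0.13, edgeR adjusted p = 0.00036), and HEK2 replicates 1 and 4 were the lowest. FLO10, a second adhesin, had 30.7, 32.6, 36.6 and 40.1 CPM in the HEK2 strain and 73.2, 87.0, 82.9 and 105 CPM in the TOS8 strain (log2 fold change -1.33, SE 0.15, edgeR adjusted p = 2.3e-07). FLO1, FLO5 and FLO9, whose near-identical repeats can share reads, were scarce and higher in the HEK2 strain by 0.88, 0.56 and 0.81, so that the group as a whole counted 5 rises and 2 falls among 9. Of 29 genes of the filamentation pathway and FLO11 regulation, 12 fell and 2 rose, against 9 and 2 without HEK2 replicate 4. The share called, 48.3%, was near the background of 47.7%. TEC1, the transcription factor of filamentation, had 31.7, 35.04, 36.7 and 37.1 CPM in the HEK2 strain and 60.9, 59.8, 60.7 and 65.0 CPM in the TOS8 strain (log2 fold change -0.82, SE 0.083, edgeR adjusted p = 8.2e-08). MIT1, an activator of FLO genes, had 163, 175, 185 and 213 CPM in the HEK2 strain and 116, 121, 119.9 and 125 CPM in the TOS8 strain (log2 fold change 0.61, SE 0.071, edgeR adjusted p = 4.8e-07). YAP6 was the other rise (0.78), and HKR1, a mucin of the osmotic and filamentation pathways, fell by 0.69. ASH1, STE12, FLO8 and CIS3 were not called, with log2 fold changes of 0.017, 0.17, 0.15 and 0.067 and edgeR adjusted p of 0.88, 0.062, 0.11 and 0.51. ASH1 had 74.6, 87.4, 78.1 and 94.1 CPM in the HEK2 strain and 76.9, 87.8, 84.0 and 82.0 CPM in the TOS8 strain, with the strains overlapping throughout.

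**Figure D4:**
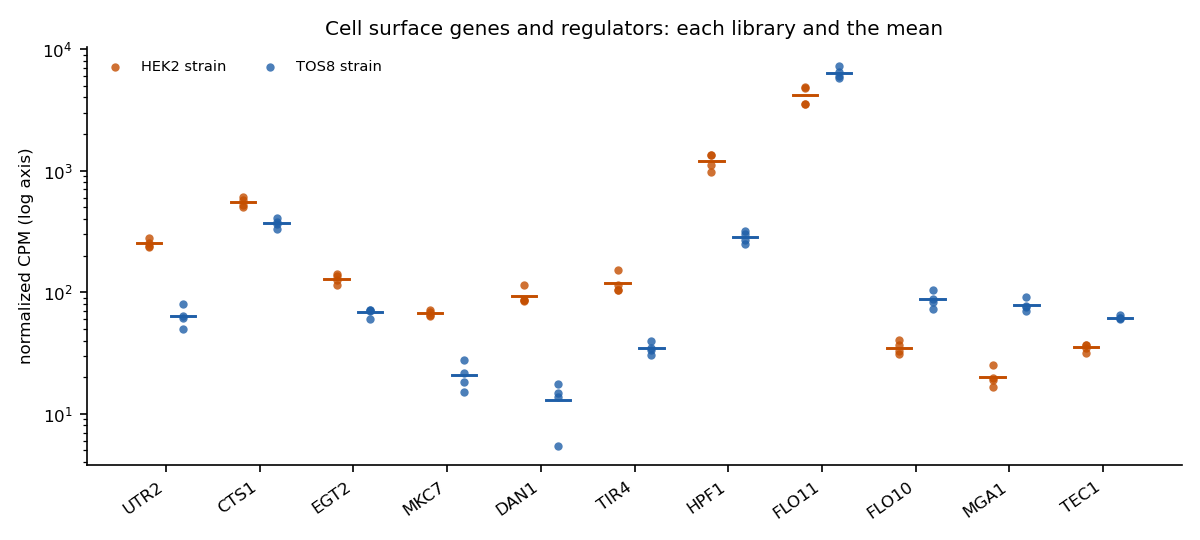
Normalized CPM (log axis) of 11 cell surface genes and their regulators, with 1 point for each of the 4 HEK2 and 4 TOS8 libraries and a bar at the mean of each strain. UTR2, CTS1, EGT2, MKC7, DAN1, TIR4 and HPF1 are higher in the HEK2 strain, and FLO11, FLO10, MGA1 and TEC1 are lower.

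Pheromone and mating genes were lower more often than higher. Of 28 genes 9 fell and 3 rose (median -0.16), with 5 rises without HEK2 replicate 1. The share called, 42.9%, was under the background of 47.7%. PRM5, PRM4 and the kinase FUS3 fell by 1.41, 1.11 and 1.11 on the log2 scale, and PRM5 had 19.5, 21.6, 24.0 and 19.95 CPM in the HEK2 strain and 56.5, 54.9, 55.0 and 56.6 CPM in the TOS8 strain (log2 fold change -1.41, SE 0.12, edgeR adjusted p = 8.1e-09). STE2, the receptor for alpha factor, rose instead, with 202, 226, 255 and 248 CPM in the HEK2 strain and 124, 137, 141 and 158 CPM in the TOS8 strain (log2 fold change 0.73, SE 0.074, edgeR adjusted p = 8e-08). Among the 8 MATa markers STE2 rose and MFA1, a gene of the a-factor pheromone, fell (-0.54), and the other 6 were not called, although a second marker was called higher without HEK2 replicate 1. Of 3 tested markers of the opposite mating type SAG1 rose by 0.52 and STE3 fell by 0.43, and both were expressed in these MATa colonies, at 70.7 ± 5.76 CPM in the HEK2 strain and 49.5 ± 3.35 CPM in the TOS8 strain for SAG1 and 18.1 ± 0.446 CPM in the HEK2 strain and 24.6 ± 1.24 CPM in the TOS8 strain for STE3 (SD, n = 4 each), whereas the genes of the alpha-type regulator, MATALPHA1 and HMLALPHA1, averaged under 1 CPM in both strains. HO, which F45 lacks, also averaged under 1 CPM. Meiosis and sporulation genes showed 2 rises, of SPS100 and SPS4, and 3 falls among 17, with no rise without HEK2 replicate 4 and 1 without HEK2 replicate 2 or 3 or TOS8 replicate 1, 2 or 4. The share called was 25% for the MATa markers and 29.4% for the meiosis and sporulation genes, both under the background of 47.7%. SPS100, of the spore wall, was highest in HEK2 replicate 4, with 14.3, 15.0, 16.4 and 28.2 CPM in the HEK2 strain and 8.65, 11.1, 12.5 and 7.65 CPM in the TOS8 strain, and its log2 fold change of 0.90 became 0.57 without that library (edgeR adjusted p = 0.023). It also lost its call without TOS8 replicate 4. IME2, a meiotic kinase, and SPR28, a sporulation septin, fell by 0.69 and 1.11 on the log2 scale.

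Of 10 hypoxic genes and their repressors, picked after the values were seen, 5 rose, 3 fell and 2 were not called (median 0.855). The repressors ROX1 and MOT3 fell, MOT3 by 1.07 on the log2 scale. AAC3, an ADP/ATP carrier of growth without oxygen, had 22.1, 23.2, 23.0 and 17.9 CPM in the HEK2 strain and 6.29, 6.10, 5.05 and 7.85 CPM in the TOS8 strain (log2 fold change 1.75, SE 0.17, edgeR adjusted p = 4.3e-08). HEM13, of heme synthesis, had 557, 674, 734 and 612 CPM in the HEK2 strain and 309, 334, 273 and 320.3 CPM in the TOS8 strain (log2 fold change 1.06, SE 0.13, edgeR adjusted p = 6e-07). HMG2, COX5B and DAN1 rose as well, while CYC7 fell, and ANB1 and TIR1 were not called (log2 fold changes 0.41 and 0.88, edgeR adjusted p = 0.11 and 0.012). For TIR1 the strains did not overlap, but TOS8 replicate 3 was low, with 697, 675, 673 and 565 CPM in the HEK2 strain and 376, 379.8, 218 and 443 CPM in the TOS8 strain.

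Sterol, inositol and drug genes each split. In ergosterol synthesis 11 of 27 genes rose and 2 fell (median 0.18), with 7 rises without HEK2 replicate 2, TOS8 replicate 3 or TOS8 replicate 4 and 4 falls without TOS8 replicate 3. The share of ergosterol genes called, 48.1%, was near the background of 47.7%. HMG2, the HMG-CoA reductase of low oxygen, rose by 0.95 and IDI1, which makes the isoprenoid building block, fell, with 271, 225, 209 and 196 CPM in the HEK2 strain and 584, 452, 412 and 445 CPM in the TOS8 strain (log2 fold change -1.07, SE 0.16, edgeR adjusted p = 7.9e-06). Of 13 genes of inositol and phospholipid synthesis, picked afterwards, 4 rose and 4 fell: INO1 fell with its activators INO2 and INO4 (-0.68 and -0.34) and its repressor OPI1 (-0.84), and PIS1, which uses inositol, rose by 0.60. ITR1, the main inositol transporter, was low in TOS8 replicate 4 as INO1 was, with 856, 842, 820.2 and 812 CPM in the HEK2 strain and 1017, 1001, 999 and 646 CPM in the TOS8 strain, and was not called. Of 23 drug efflux genes 9 rose and 6 fell. PDR5, the main multidrug pump, had 333, 325, 349 and 315 CPM in the HEK2 strain and 993, 797, 703 and 550.4 CPM in the TOS8 strain (log2 fold change -1.20, SE 0.16, edgeR adjusted p = 2.6e-06). PDR16, a lipid transfer protein of the same regulon, fell by 1.52, while the sterol importers PDR11 and AUS1 rose by 0.78 and 0.63.

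Metal and phosphate genes differed gene by gene. Of 28 iron genes 11 fell and 7 rose. FIT2, a wall protein that holds iron carriers, had 94.9, 129, 105 and 95.1 CPM in the HEK2 strain and 368, 363, 217 and 242 CPM in the TOS8 strain (log2 fold change -1.48, SE 0.21, edgeR adjusted p = 4e-06). HMX1, heme oxygenase, and TIS11, which degrades mRNAs when iron is short, fell by 1.13 and 0.93, whereas ENB1, the enterobactin transporter, rose by 0.90. Aft1 sites (TGCACCC) lay upstream of 15 of the 28 genes (53.6%) and of 1.33% of all ORFs. Phosphate genes moved with replicate 4 of both strains, their mean log2 level, less that of the 12 other libraries, being -0.12, -0.13, -0.185 and 0.31 in the HEK2 libraries and 0.13, 0.13, 0.13 and -0.077 in the TOS8 libraries. With all libraries 5 of 24 rose and 6 fell, a share called of 45.8% against the background of 47.7%. Without HEK2 replicate 4 the counts were 3 and 11 and the median -0.18 in place of -0.02. Without TOS8 replicate 4 they were 4 and 7 and the median -0.12. The part of either library in these counts was not tested. PHO89, a sodium-phosphate transporter, shows the same, with 25.4, 21.8, 17.8 and 50.95 CPM in the HEK2 strain and 96.3, 75.7, 92.6 and 52.7 CPM in the TOS8 strain (log2 fold change -1.37, and -1.81 without HEK2 replicate 4). GIT1, a glycerophosphoinositol transporter, was higher in every HEK2 library, with 32.8, 26.1, 25.5 and 46.1 CPM in the HEK2 strain and 8.65, 11.4, 9.92 and 9.84 CPM in the TOS8 strain (log2 fold change 1.72, SE 0.14, edgeR adjusted p = 5e-09). The metallothionein CUP1-1, a near copy of CUP1-2, fell by 0.96. Zinc genes gave 3 rises and 3 falls among 13. Of 25 antioxidant genes 8 rose and 5 fell, or 7 and 8 without HEK2 replicate 4, with mitochondrial SOD2 falling by 0.78 and GPX2 rising by 0.54. Aquaporin and glycerol genes gave 4 rises, of AQY3, AQY1, GUP1 and GPD2, and 3 falls among 13, and histones 1 rise among 10. Against the background of 47.7%, the shares called were 46.2% for zinc, 52% for antioxidant, 53.8% for aquaporin and glycerol genes and 10% for histones.

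The known partners of the plasmid genes were looked at by role. In the group that carries ASH1 mRNA to the bud, 4 of 7 genes rose slightly, among them the transport proteins SHE2 (0.34) and SHE3 (0.34), and the translational repressor PUF6 and the nuclear factor LOC1 fell by 0.74 and 0.55 on the log2 scale. All 5 genes of the group around the TOS8 paralog and peptide uptake were higher in the HEK2 strain (median 0.75). CUP9 had 148, 170.2, 158 and 166.2 CPM in the HEK2 strain and 93.9, 96.5, 101 and 91.7 CPM in the TOS8 strain (log2 fold change 0.75, SE 0.082, edgeR adjusted p = 2.1e-07). PTR2, the peptide transporter that Cup9 represses, had 281, 272, 249 and 289.8 CPM in the HEK2 strain and 198, 184, 199 and 191 CPM in the TOS8 strain (log2 fold change 0.50, SE 0.07, edgeR adjusted p = 4.4e-06). OPT2 and OPT1, transporters of small peptides and glutathione, showed the largest differences, and OPT2 had 2482, 2911, 2697 and 2978 CPM in the HEK2 strain and 775, 844, 916 and 1069.9 CPM in the TOS8 strain (log2 fold change 1.62, SE 0.09, edgeR adjusted p = 3.2e-11), with OPT1 higher by 1.53. The core TGACA, given for TALE proteins of this kind, lay upstream of none of these 5 ORFs and of 40.9% of all ORFs, which says only that the letters are not in these windows. Cyclins, picked afterwards, showed the mitotic pair CLB1 and CLB2 higher (1.85 and 0.71), CLN2 and CLB6 higher (0.52 and 0.62) and CLN3 lower (-0.51), CLB6 losing its call without HEK2 replicate 4 or TOS8 replicate 2.

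The 12 libraries of the SFL1, SAN1 and ROF1 strains place the pair. Against the mean of those 3 strains 754 ORFs were called in the HEK2 strain (13.1%) and 2533 in the TOS8 strain (43.9%), 2 contrasts that share the same 12 libraries. Past 1.5-fold the counts were 70 and 430. Of the 2753 ORFs called between the pair, 1686 were called against the other strains for TOS8 alone, 245 for HEK2 alone, 336 for both and 486 for neither, and a call in one contrast but not the other does not show that the contrasts differ. The mean of the SFL1 strain lay nearer to the HEK2 strain than to the TOS8 strain for 2310 of the 2753 ORFs (83.9%), that of the SAN1 strain for 1901 (69.1%) and that of the ROF1 strain for 1717 (62.4%). Over all tested ORFs these shares were 73.3%, 61.2% and 57.3%.

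The side-by-side values place both strains beside the other 3 for a given group. For heat shock proteins the mean log2 level, less that of the 12 other libraries, was -0.085, -0.042, -0.08 and 0.038 in the HEK2 libraries and 0.72, 0.60, 0.69 and 0.48 in the TOS8 libraries, all 4 TOS8 libraries lying above every other library, which ran from -0.30 to 0.22 in the SFL1, SAN1 and ROF1 strains. For other amino acid synthesis it was 0.22, 0.33, 0.28 and 0.054 in the HEK2 libraries and -0.22, -0.19, -0.29 and -0.25 in the TOS8 libraries, on opposite sides of 0, and the ROF1 libraries, at -0.195, -0.24, -0.14 and -0.095, were low as well. The SFL1 libraries, from 0.0547 to 0.142, and the SAN1 libraries, from 0.0274 to 0.0859, were also above 0. HEK2 replicate 4 lay among the SAN1 libraries. Glycolysis and fermentation likewise gave 0.34, 0.34, 0.29 and 0.36 in the HEK2 libraries and -0.21, -0.14, -0.32 and -0.27 in the TOS8 libraries. There the ROF1 libraries had -0.11, -0.16, -0.15 and 0.071, so that TOS8 replicate 2 lay among them. The SAN1 libraries ran from -0.13 to 0.094 and the SFL1 libraries from 0.042 to 0.15. For single genes against the mean of the other strains, SIS1 stood at -0.16 in the HEK2 strain and 1.63 in the TOS8 strain, and ADY2 at -0.82 in the HEK2 strain and 2.02 in the TOS8 strain. HPF1 stood at 1.33 in the HEK2 strain and -0.75 in the TOS8 strain and NFG1 at -1.60 in the HEK2 strain and 0.41 in the TOS8 strain, the HEK2 value being the larger in size for both. UTR2 had 0.49 in the HEK2 strain and -1.49 in the TOS8 strain, and ENB1 had 0.86 in the HEK2 strain and -0.036 in the TOS8 strain. FLO11 was at -0.026 in the HEK2 strain and 0.59 in the TOS8 strain, and TEC1 at -0.51 in the HEK2 strain and 0.30 in the TOS8 strain. These values are relative to other overexpression strains, SFL1 among them. Against the empty-vector strain the study reports FLO11, FLO10 and TEC1 as repressed in the TOS8 strain. It reports the same for the profile that the HEK2 strain shares with the SFL1, SAN1 and ROF1 strains.

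**Figure D5:**
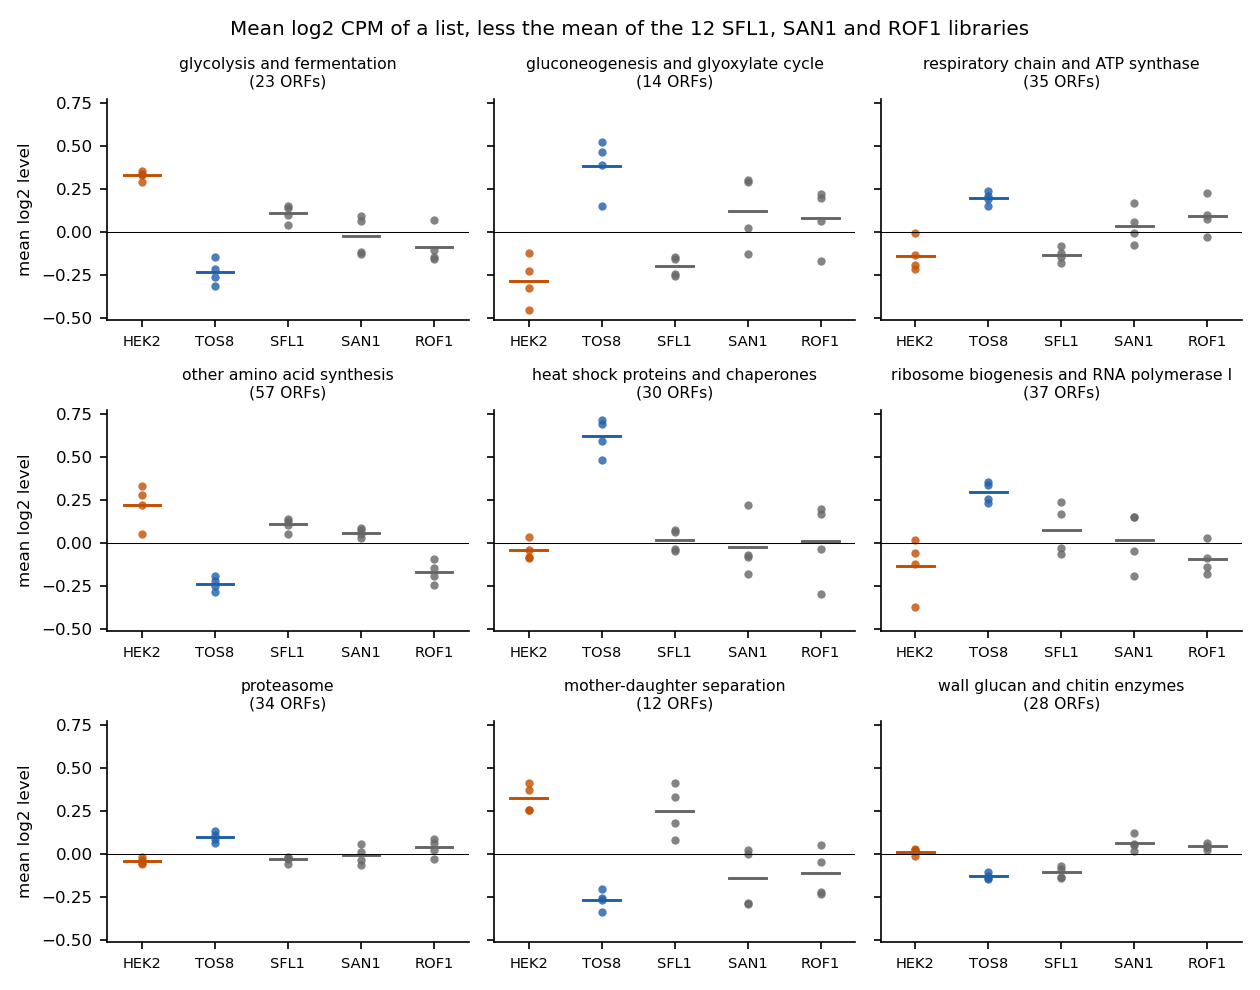
Mean log2 CPM of the members of 9 gene groups in each library, less the mean of the 12 SFL1, SAN1 and ROF1 libraries (vertical axis), by strain, with 1 point for each of 4 libraries and a bar at their mean. Heat shock proteins lie between 0.48 and 0.72 in the TOS8 libraries and between -0.30 and 0.22 in all others, whereas glycolysis and amino acid synthesis lie above 0 in the HEK2 strain and below 0 in the TOS8 strain. The ROF1 libraries also lie below 0 for amino acid synthesis and, but for replicate 4, for glycolysis. All SFL1 and SAN1 libraries lie above 0 for amino acid synthesis, as do all SFL1 libraries for glycolysis.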

How the data were processed

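Gene-level read counts of 20 stranded mRNA libraries were used. Per the labels and the study's methods, the authors mapped paired reads to the R64 genome with Bowtie2 (version 2.1.0) and deposited raw counts per feature from featureCounts (version 1.4.0), without a filter on mapping quality, so near-identical genes can share reads. The table pairs each of its 20 count columns with a labelled sample (0 columns without one) and holds 12131 features, of which 6575 are ORFs. Library totals are in the report, and their depth limits mainly ORFs of a few CPM.

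Members and gene lists were chosen with earlier results of these data known, and lists called picked afterwards were added after the values were seen. ORFs whose median reached 1 CPM were fitted in edgeR 4.0.16 (R 4.3.3, limma 3.58.1) with TMM factors and a mean per strain over all 20 libraries, and tested by glmQLFTest with Benjamini-Hochberg adjustment at 0.01. Tested on simulated counts for this comparison (5772 ORFs, 200 changed), the fit recovered 133 of 134 changes of 2-fold or 4-fold. It also recovered 59 of 66 of 1.5-fold, with 1 false call. No smaller change was simulated, so recovery of the smaller differences that make up most of the calls was not tested. The labels call the samples of a strain replicates from separate colony pools, so p-values measure the spread between such pools. Named ORFs were the plasmid genes, screen genes and neighbours, the 12 largest rises and 12 largest falls called without overlap at a mean of at least 5 CPM, up to 3 called members in each direction per list, and FLO11, FLO10, TEC1, ASH1, CIS3, STE12, MIT1 and FLO8. Others were chosen after their values were seen. No list was tested. Upstream sequence came from the RefSeq R64 genome, where 5565 of 5597 ORFs matched by locus tag had the same start and end as the files. Alternatives were the likelihood ratio test, DESeq2 1.42.0, RLE or all-feature scaling, other filters and thresholds, the 8 libraries alone, a replicate block and each of the 8 libraries left out.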

Additional observations from a re-analysis of the deposited data

Results flagged for a closer look

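The 265 named genes were each looked at in both strains. In 35 cases among them, 1 of the 4 libraries of a strain lay so far from the other 3 that the gap to its nearest mate, as a part of the whole range of the group, passed Dixon's critical value. Chance alone gives this in about 1 in 20 groups of 4, so many of the cases may be chance. HEK2 replicate 1 stood highest for HXT13 (227 CPM), ERG24 (194 CPM), PRY3 (132 CPM), TPO1 (233 CPM) and MOT3 (44.4 CPM). It was the lowest for FLO5 (5.96 CPM). HEK2 replicate 2 was the lowest for SCW11 (80.9 CPM). Replicate 3 of the HEK2 strain was the highest for DAN1 (114 CPM) and the lowest for CUP1-1 (874 CPM). HEK2 replicate 4 was the highest of its strain for FDH1 (6.93 CPM), JEN1 (1894 CPM), NDE2 (85.0 CPM), PHM7 (417 CPM), CWP1 (1238 CPM), GPD1 (404 CPM), SPS100 (28.2 CPM), ADE16 (271 CPM) and GRE1 (791 CPM). The same library was the lowest for SNO1 (26.6 CPM) and INO2 (30.7 CPM). In the TOS8 strain, replicate 1 was the highest for CYC7 (1003 CPM), PUT1 (1062 CPM) and DBP2 (562 CPM). That library was the lowest for VPS45 (50.8 CPM). TOS8 replicate 2 stood highest for GDB1 (229 CPM) and ZRC1 (202 CPM). It had the lowest values of GPX2 (21.3 CPM) and RPS27A (328 CPM). TOS8 replicate 3 was the highest for AQY1 (88.3 CPM). The lowest values of that library were those of EGT2 (60.3 CPM) and ANB1 (42.3 CPM). TOS8 replicate 4 was the lowest of its strain for CCP1 (248 CPM), ITR1 (646 CPM), PSD1 (104 CPM) and SNZ1 (33.9 CPM).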

How the results depend on the processing

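The count of ORFs called between the HEK2 and TOS8 strains stayed between 2570 and 2893 under every other scaling, filter, test or choice of libraries at the same threshold, and between 2384 and 2678 when 1 of the 8 libraries was left out, with 1175 to 1325 higher and 1209 to 1353 lower. The largest shift of the median log2 fold change under another scaling was -0.0134, and the share of calls that were higher stayed between 46.0% and 50.2%. Asking for a 1.5-fold change as well left 837 called ORFs, 349 higher and 488 lower. The contrasts against the SFL1, SAN1 and ROF1 strains left 70 for HEK2 and 430 for TOS8 at that fold. At a false discovery rate of 0.05 the HEK2 contrast gave 1484 calls, against 754, and it gave 492 to 733 calls with 1 library left out (492 without HEK2 replicate 2). The TOS8 contrast gave 2021 to 2627. A replicate block gave 2832 calls against 2753, changing the call of 5 of the 265 named genes. Deviations of same-numbered libraries correlated at 0.129, -0.0424, -0.16 and -0.24, and those of other pairs ran from -0.234 to 0.211. The labels do not say what the numbers stand for, and the libraries were not treated as pairs. Whether same-numbered libraries share a batch was not tested. Of the gene lists, the median of the 3 tested MATalpha markers changed sign, from -0.149 with all libraries to 0.0522 at a median of at least 10 CPM, and it ran from -0.252 to 0.00409 with 1 library left out. The medians of phosphate starvation (-0.179 to 0.0571), antioxidant enzymes (-0.0178 to 0.0608), the cell wall integrity pathway (-0.00212 to 0.0398) and histones (-0.0605 to 0.00136), all near 0, also took both signs there. The cause was not tested. Of the 265 named genes, 64 called ones were under 1.5-fold, and 6 to 13 lost their call when 1 library was left out. Depth and 4 libraries a strain limit ORFs of a few CPM, and near-identical genes cannot be told apart.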

Other observations

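A few further genes, chosen after their values were seen, lie outside the groups above. GRE1, a hydrophilin induced by osmotic stress and drying, had 293, 368, 315 and 791 CPM in the HEK2 strain and 1183, 1250.0, 1549 and 976 CPM in the TOS8 strain (log2 fold change -1.49, SE 0.28, edgeR adjusted p = 0.00015), and without HEK2 replicate 4, which stood well above its mates, the log2 fold change was -1.93. Its paralog SIP18 had 231, 255, 225 and 351 CPM in the HEK2 strain and 615, 702, 833 and 653 CPM in the TOS8 strain, again lower in the HEK2 strain without overlap (log2 fold change -1.40, SE 0.17, edgeR adjusted p = 9.3e-07). NCE103, carbonic anhydrase, which yeast needs in ordinary air, had 704, 575, 366 and 326 CPM in the HEK2 strain and 1358, 1254, 1404 and 1279 CPM in the TOS8 strain (log2 fold change -1.42, SE 0.27, edgeR adjusted p = 0.00013), with HEK2 replicates 1 and 2 above replicates 3 and 4. The same order of HEK2 libraries was seen in YOR338W. ICT1, an acyltransferase of phosphatidic acid synthesis, fell by 0.80 on the log2 scale (edgeR adjusted p = 2.6e-06). RSB1, a transporter of long-chain bases, was highest in replicate 1 of the HEK2 strain and was not called, with 140.0, 89.0, 73.3 and 79.1 CPM in the HEK2 strain and 148, 132, 142 and 124 CPM in the TOS8 strain (log2 fold change -0.51, SE 0.27, edgeR adjusted p = 0.11).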
